A study of Homo sapiens with 3 samples.

Results

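The genes described here were 42 named genes of glucose uptake and breakdown, out of 46427 genes in the deposited table. They were chosen by gene symbol: 9 glucose transporters of the SLC2A family, 10 enzymes from glucose to the triose phosphates, 3 enzymes that set the level of fructose 2,6-bisphosphate, 6 enzymes from the triose phosphates to pyruvate, 7 genes of lactate and pyruvate handling, 2 gluconeogenic enzymes, and 5 hypoxia regulators and targets. All 42 symbols were found once in the table. RNA-seq was performed on MDA-MB-468 (MM468), a human triple-negative breast cancer cell line, as 3 libraries from 3 cell populations labelled wild type in genotype. The parental cells were untreated. The adriamycin-resistant cells were those that survived exposure to 10 to 140 nM adriamycin (doxorubicin, a topoisomerase II poison), and the paclitaxel-resistant cells (MM468/PR) survived 2 to 320 nM paclitaxel, which stabilises microtubules. All were grown in Dulbecco's medium with 10% fetal bovine serum. The resistant lines are surviving populations, and the sources do not state that they were cloned. Their sample labels name adriamycin and paclitaxel as the treatment. The sources do not state whether drug was present when RNA was taken.

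Cells take up glucose through facilitative transporters of the SLC2A (GLUT) family and trap it as glucose 6-phosphate by hexokinase. Glycolysis then splits it into triose phosphates and oxidises these to pyruvate, which is either reduced to lactate by lactate dehydrogenase and exported by monocarboxylate transporters, or passed to the mitochondrial pyruvate dehydrogenase that the PDK kinases inhibit. Many tumours, triple-negative breast cancers among them, are known for high glucose uptake and lactate output, and hypoxia-inducible factors are known activators of many of these genes.

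The libraries held 32704885 counts in parental cells, 47567927 in adriamycin-resistant cells and 43242628 in MM468/PR cells, and the 13 mitochondrially encoded mRNAs took 5.15 to 6.7% of them. The 6 breast epithelial markers examined (EPCAM, CDH1, KRT7, KRT8, KRT18 and KRT19) summed to between 7381 and 8683 TPM, a level corrected for transcript length and depth, whereas the immune, endothelial and fibroblast lists each summed to at most 13.84 TPM. ESR1, PGR and ERBB2, the receptors scored in this cancer type, summed to 29.62 to 37.19 TPM, most of it ERBB2. Each cell population was 1 library, so no difference below has a replicate check and no test across libraries was possible. Fold changes were taken from counts scaled by the trimmed mean of M values (TMM), and each interval is an exact 95% interval that covers counting error only. A gene was compared when 1 of the 2 libraries had 10 or more counts, and was counted as higher or lower, and written of as risen or fallen, from 2-fold upward. Both resistant lines were compared with the same parental library, so their differences from it are not independent.

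In adriamycin-resistant cells, 3 of 41 compared members were at least 2-fold higher than in parental cells, against 10.9% of all 17950 genes compared, and 9 were at least 2-fold lower, against 11.4% of all genes. As shares of the members these were 7.32% and 22%. The median log2 fold change of the members was 0.08, beside 0.02 for all genes. In MM468/PR cells, 2 of 40 compared members were higher (5%), against 20.5% of all 19099 genes, and 11 were lower (27.5%), against 13.5% of all genes. Here the members' median was -0.49, beside 0.07 for all genes. In adriamycin-resistant cells these differences lay mostly in the transporters and in lactate and pyruvate handling. In MM468/PR cells they lay in these groups, in the hypoxia targets CA9 and VEGFA, and in HK1, PFKFB3, PGAM1 and FBP1. Most of the abundant glycolytic enzymes were below 2-fold in both lines. The plot shows the transcript level of each member. In bulk RNA, a change in the make-up of a cell population and a change in RNA per cell cannot be told apart.

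**Figure D1:**
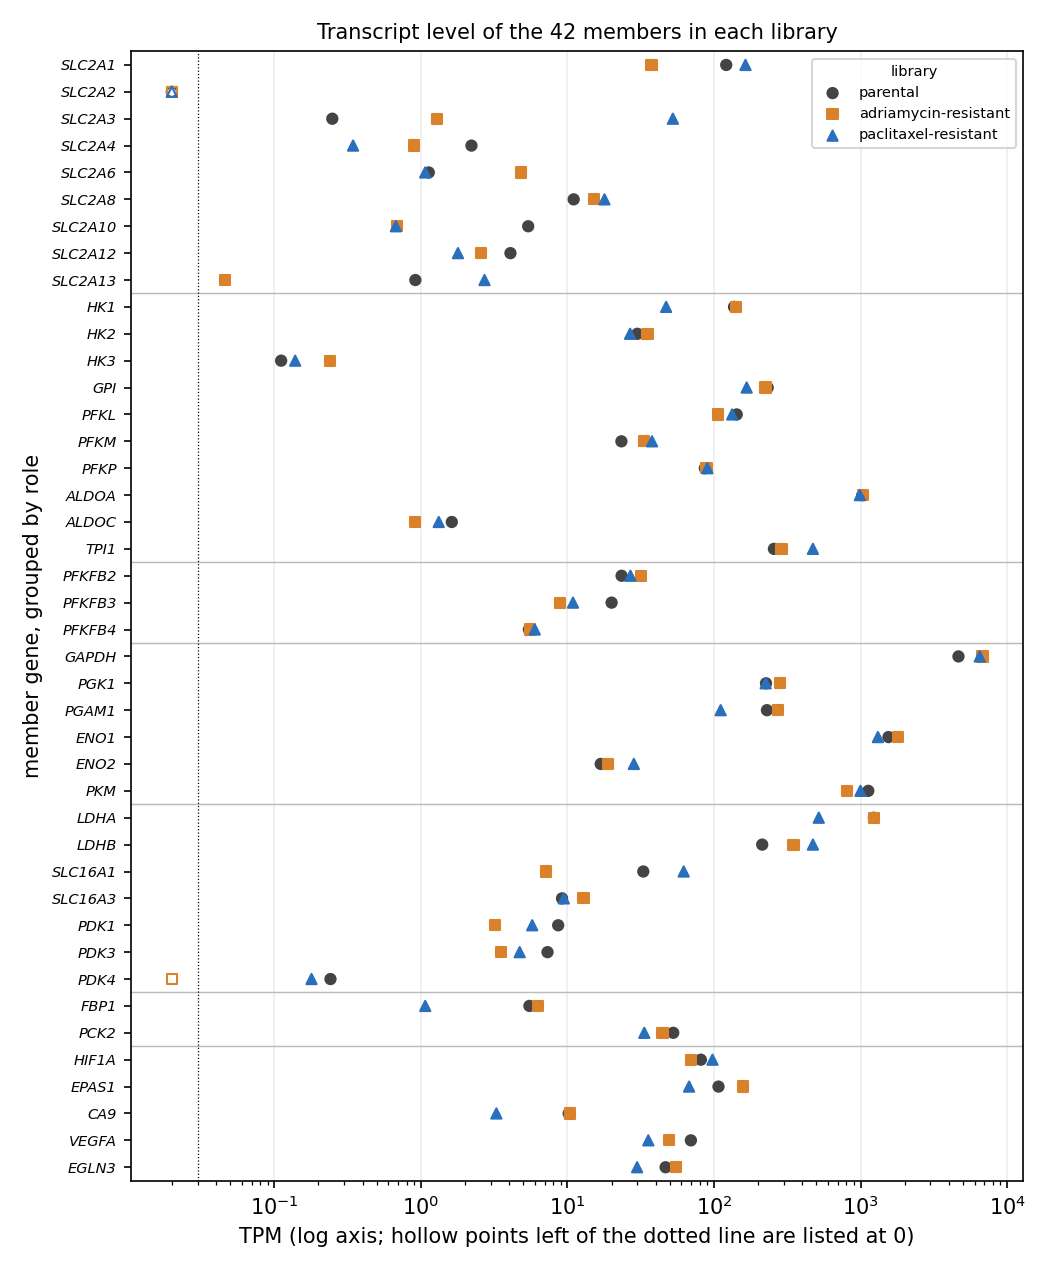
Level of each of the 42 members in TPM on a log axis, 1 point per library (circle parental, square adriamycin-resistant, triangle paclitaxel-resistant), grouped by role with grey lines between groups. SLC2A3 ran from 0.249 TPM in parental cells to 52.5 TPM in paclitaxel-resistant cells, whereas ALDOA stayed between 990.3 and 1046 TPM.

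The glucose transporters differed widely between the 3 libraries. SLC2A1 (GLUT1, the main basal glucose transporter of most cells, chr1:42925375-42959176 on the minus strand of GRCh38) had 6068 counts in parental, 2854 in adriamycin-resistant and 10115 in MM468/PR cells. The adriamycin-resistant library was the low one: SLC2A1 fell 3.13-fold there (interval 2.99 to 3.27), while MM468/PR cells stood at 1.08 times the parental level (1.04 to 1.11). Between the resistant lines the MM468/PR level was 3.29-fold higher (3.15 to 3.43). The 9 members summed to 146.3 TPM in parental, 62.99 TPM in adriamycin-resistant and 241.1 TPM in MM468/PR cells.

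SLC2A3 (GLUT3, a high-affinity transporter best known from neurons, chr12:7919230-7936275, minus strand) had 15 counts in parental, 112 in adriamycin-resistant and 3657 in MM468/PR cells. It was the 1 member that rose in both resistant lines, 5.05-fold in adriamycin-resistant cells (2.95 to 9.37) and 157-fold in MM468/PR cells (95.4 to 282). The step between the resistant lines was 30.3-fold (25.1 to 36.9). On the TPM scale the level went from 0.249 to 1.3 and 52.5, so that SLC2A3 made up 0.147% of the summed TPM of all 14 SLC2A genes of the table in parental cells, 1.65% in adriamycin-resistant cells and 19.2% in MM468/PR cells. SLC2A1 remained the most abundant of the 14 in each library, at 71.7%, 47.7% and 60.2%. Within a library the ratio of SLC2A1 to SLC2A3 counts, which no choice of scaling can alter, was 146 times lower in MM468/PR than in parental cells (88 to 243).

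SLC2A14, a neighbour of SLC2A3 on chromosome 12 that shares sequence with it (chr12:7812512-7891148, minus strand), had 46, 40 and 201 counts in the same order. Of the 50-base windows of the longest SLC2A3 transcript in GENCODE v29, 23% occur letter for letter in an SLC2A14 transcript, and none occurs in SLC2A1. How reads from the shared stretches were assigned is not given in the sources used here. The level of SLC2A14 is therefore uncertain, and so is that of SLC2A3 where it was low, at 15 counts in parental cells. The SLC2A3 fold changes and ratios rest on this parental count, and their intervals do not cover read assignment. The 3 SLC2A3 pseudogenes of the table together had 6, 9 and 24 counts, which is 40%, 8.04% and 0.656% of the SLC2A3 counts.

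SLC2A13 (HMIT, a proton-coupled myo-inositol transporter, chr12:39755021-40106089, minus strand) moved in opposite directions in the resistant lines. It had 100 counts in parental, 9 in adriamycin-resistant and 359 in MM468/PR cells, which is 16.1-fold lower (8.28 to 36.8) and 2.32-fold higher (1.85 to 2.93), respectively. No other member passed the 2-fold threshold in opposite directions. The stretch before its RefSeq start site is shown because this was the member with the widest gap between the resistant lines among the transporters, 36.5-fold (19.3 to 81.6). It is read 5′ to 3′ on the minus strand of GRCh38.p14 at chr12:40106090-40106331, lies outside every GENCODE v29 exon, and ends 8 bases before the start. Capitals mark CACGTG, a palindrome that holds the hypoxia-response core ACGTG on each strand and is also the canonical E-box bound by MYC and related factors.
SLC2A13: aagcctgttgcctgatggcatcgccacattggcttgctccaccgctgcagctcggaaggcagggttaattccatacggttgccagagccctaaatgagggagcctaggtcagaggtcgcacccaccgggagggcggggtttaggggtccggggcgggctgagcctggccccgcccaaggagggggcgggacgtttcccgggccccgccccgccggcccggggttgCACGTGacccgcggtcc
Upstream windows of 250 bases were available for 37 of the 42 members, as 64 windows counting alternative starts. CACGTG, searched on both strands, occurred in 7 of the 64 (10.9%) and in 6.34% of all 35116 human windows in the set. ACGTG on either strand, which includes CACGTG, occurred in 21 of the 64 (32.8%) and in 18.5% of all windows, and GCGTG in 19 (29.7%) and 32.2%. In the windows of protein-coding genes of the table, the shares were 7.42% for CACGTG, 20.2% for ACGTG and 38.4% for GCGTG. Members had 1.73 windows per gene against 1.41 for protein-coding genes. Counted by gene, with a match in any window, ACGTG occurred in 48.6% of members and 25.6% of protein-coding genes, and GCGTG in 45.9% and 46%. A match describes these letters only.

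Of the other transporters, SLC2A6 (GLUT6, known from lysosomal membranes) had 55, 269 and 64 counts in parental, adriamycin-resistant and MM468/PR cells, and rose 3.32-fold in adriamycin-resistant cells (2.48 to 4.53). In MM468/PR cells SLC2A6 was at 0.752 times the parental level (0.516 to 1.1), an interval that includes 1. SLC2A4 (GLUT4, the insulin-responsive transporter of muscle and fat) had 111, 69 and 22 counts and fell in both lines, 2.36-fold (1.74 to 3.25) and 7.76-fold (4.91 to 13). SLC2A10 (GLUT10) had 337, 91 and 73 counts and was 5.44-fold (4.31 to 6.95) and 7.13-fold lower (5.53 to 9.33). The levels of SLC2A10 in the resistant lines, 0.685 and 0.676 TPM, lay close together. SLC2A12 (GLUT12) had 337, 320 and 182 counts and fell 2.86-fold in MM468/PR cells (2.39 to 3.45), with a ratio of 0.645 in adriamycin-resistant cells. SLC2A8 (GLUT8, an intracellular transporter) had 323, 596 and 588 counts, 1.25 and 1.18 times the parental level. SLC2A2 (GLUT2, the transporter of liver and pancreatic beta cells) had 0 counts in all 3 libraries, which allows at most 0.0631 to 0.0917 CPM (counts scaled to library size). In all, 4 of 8 compared transporters were lower and 2 higher in adriamycin-resistant cells, with a median log2 fold change of -0.94. In MM468/PR cells 3 of 8 were lower and 2 higher, with a median of -0.15. The transporters that fell in both lines, SLC2A4 and SLC2A10, were low in every library, at most 5.4 TPM.

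**Figure D2:**
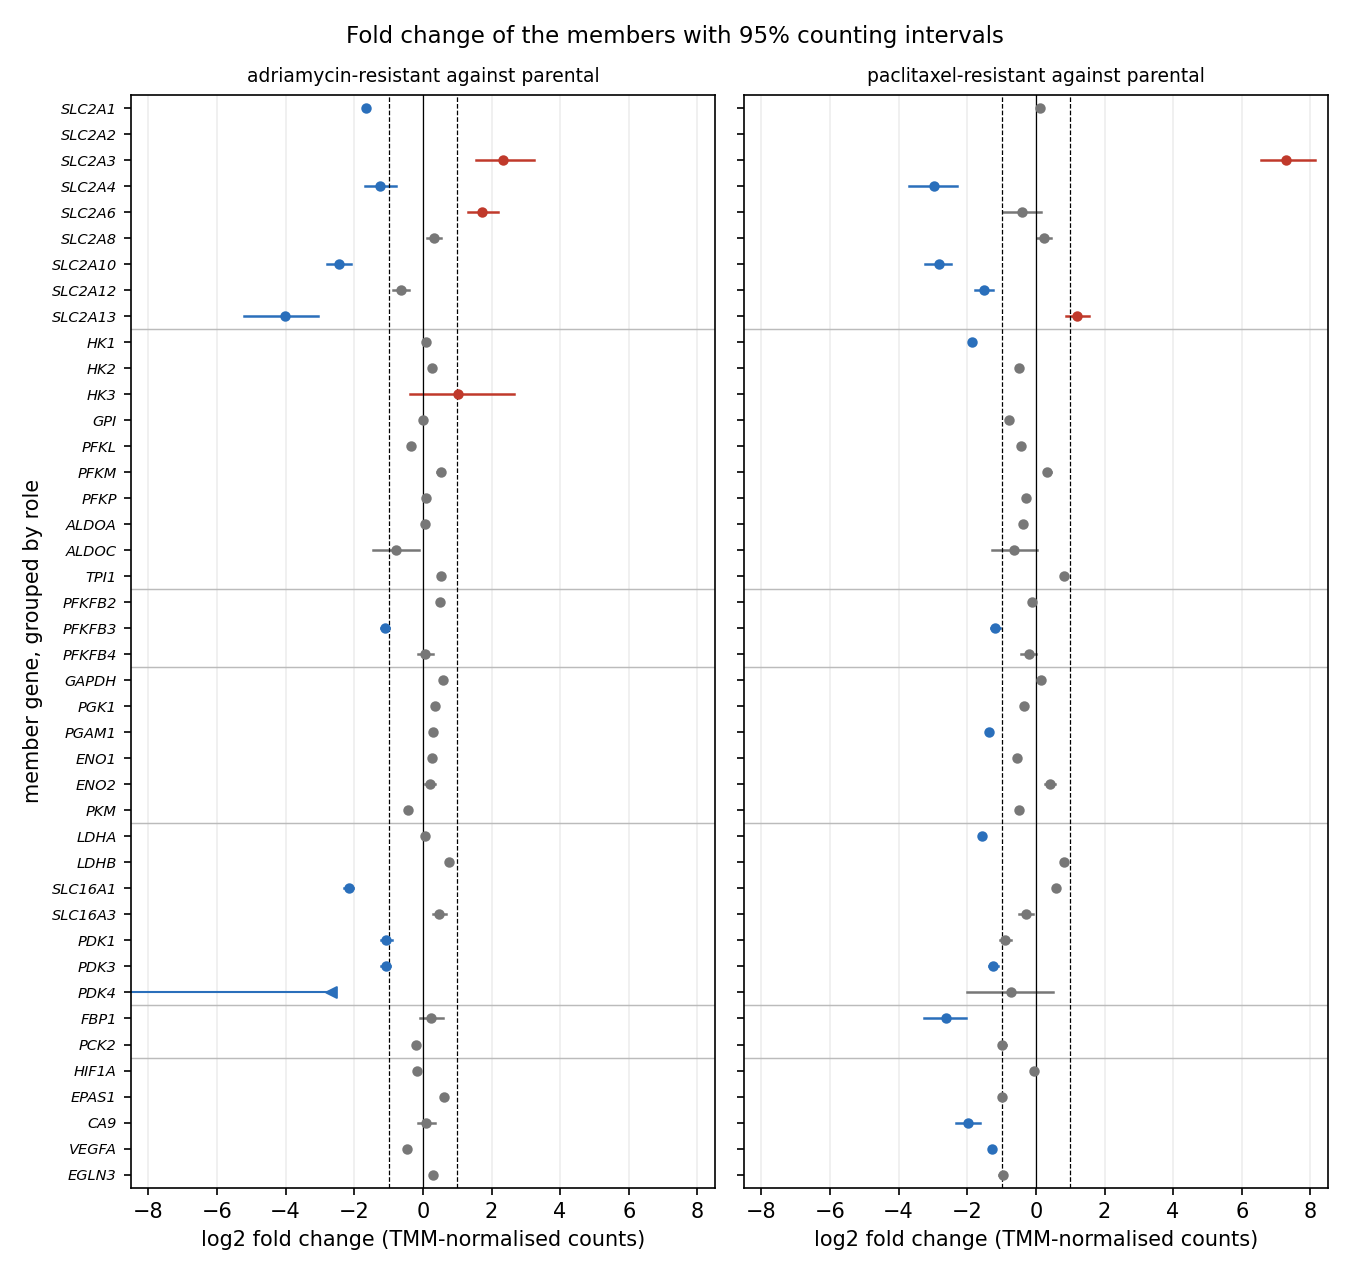
Log2 fold change of each member against parental cells from TMM-normalised counts, for adriamycin-resistant (left) and paclitaxel-resistant cells (right). Lines are 95% counting intervals, dashed lines mark 2-fold, red and blue points are at least 2-fold higher and lower, the arrowhead is the bound for PDK4 (0 counts in the adriamycin-resistant library), and members not compared have no point. Only SLC2A3 is red on both sides.

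Among the enzymes from glucose to the triose phosphates, HK1 fell in MM468/PR cells. HK1 (hexokinase 1, the broadly expressed isoform that commits glucose to metabolism, chr10:69269984-69401884, plus strand) had 7299 counts in parental, 11516 in adriamycin-resistant and 3098 in MM468/PR cells. MM468/PR was the low library: HK1 fell 3.65-fold there (3.5 to 3.8), and stood at 1.07 times parental in adriamycin-resistant cells (1.04 to 1.1). HK2, the isoform typical of insulin-responsive tissue and of many tumours, had 2475, 4370 and 2754 counts and ratios of 1.2 (1.14 to 1.26) and 0.719 (0.681 to 0.759). HK1 therefore made up 81.9% of the summed hexokinase TPM in parental, 79.7% in adriamycin-resistant and 63.7% in MM468/PR cells, and HK2 17.9%, 19.8% and 36.1%. The ratio of HK1 to HK2 counts within a library was 2.62 times lower in MM468/PR than in parental cells (2.45 to 2.81). HK3, the isoform of white blood cells, had 6, 18 and 9 counts. Its ratio of 2.02 in adriamycin-resistant cells had an interval of 0.775 to 6.27 and counted as higher by the threshold alone.

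The 3 phosphofructokinase subunits, which form the main regulated enzyme of glycolysis, were all below 2-fold in both lines. PFKP (platelet type) was at 86.7, 89 and 90.1 TPM in parental, adriamycin-resistant and MM468/PR cells. Its count ratios were 1.06 (1.01 to 1.11) and 0.826 (0.789 to 0.864). PFKL (liver type) took 46.6 to 56.5% of the summed subunit TPM and PFKM (muscle type) 9.24 to 14.5%. ALDOA, the aldolase that splits fructose 1,6-bisphosphate, was at 990.3 to 1046 TPM in all 3 libraries, and its paralog ALDOC at 0.907 to 1.63 TPM. TPI1, which interconverts the triose phosphates, was at 256.7, 288.7 and 473.4 TPM, with count ratios of 1.45 and 1.78. GPI, which turns glucose 6-phosphate into fructose 6-phosphate, was at 1.01 and 0.584 times the parental level. Of the 10 enzymes of this stage, 1 was higher and none lower in adriamycin-resistant cells, and none was higher and 1 lower of the 9 compared in MM468/PR cells. Their summed TPM was 1940, 1967 and 1968, and ALDOA made up the largest part of it in each library.

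PFKFB3, an enzyme that makes the phosphofructokinase activator fructose 2,6-bisphosphate, fell in both lines. It had 1288, 883 and 879 counts in parental, adriamycin-resistant and MM468/PR cells, which is 2.15-fold (1.97 to 2.34) and 2.27-fold lower (2.08 to 2.47). PFKFB2, a paralog known from heart, was at 1.41 and 0.922 times, and PFKFB4 at 1.05 and 0.863 times the parental level. PFKFB3 went from 40.6% of the summed PFKFB TPM in parental cells to 19.2% and 24.3%, and PFKFB2 from 47.5% to 68.1% and 60%. The summed TPM of the 3 members was 48.9, 46.3 and 43.8. The MM468/PR value was below 2-fold with library size alone (log2 ratio of -0.95) and on the TPM scale (-0.88). The stretch before 1 of its 2 RefSeq starts in the set was picked for display because it holds CACGTG, and the window of the other start holds neither CACGTG nor ACGTG. Among the other members that fell in both lines, the windows of SLC2A10 and PDK3 hold ACGTG but no CACGTG. The stretch lies on the plus strand of GRCh38.p14 at chr10:6202694-6202865, outside annotated exons, and ends 66 bases before the start, with CACGTG in capitals.
PFKFB3: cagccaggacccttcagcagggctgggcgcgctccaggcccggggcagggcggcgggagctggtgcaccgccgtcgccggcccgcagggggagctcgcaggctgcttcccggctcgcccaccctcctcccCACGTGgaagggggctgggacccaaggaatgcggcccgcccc

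The payoff stage of glycolysis differed in 1 enzyme. PGAM1 (phosphoglycerate mutase 1, chr10:97426160-97433441, plus strand) had 6127, 11081 and 3648 counts in parental, adriamycin-resistant and MM468/PR cells. It fell 2.6-fold in MM468/PR cells (2.49 to 2.71) and stood at 1.23 times parental in adriamycin-resistant cells. PGAM1 shares sequence with its retrogene PGAM4, in which 18.7% of the 50-base windows of the longest PGAM1 transcript occur, and PGAM4 had 76, 135 and 36 counts. The 10 PGAM1 pseudogenes in the table had 88, 84 and 181 counts in all. GAPDH, the most abundant member and a common reference gene, had 88278, 196123 and 151762 counts and was at 1.51 (1.5 to 1.52) and 1.11 times (1.1 to 1.12) the parental level. PKM, the pyruvate kinase of most tissues, had 38970, 42534 and 42758 counts and ratios of 0.742 (0.731 to 0.752) and 0.709 (0.699 to 0.719). PGK1 and ENO1 were at 1.28 and 1.2 times in adriamycin-resistant cells and at 0.792 and 0.688 times in MM468/PR cells. ENO2, the enolase isoform of neurons, was at 1.17 and 1.34 times. Of the 6 enzymes, none was higher or lower in adriamycin-resistant cells and 1 was lower in MM468/PR cells. The narrow intervals of these enzymes do not cover differences between cultures.

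In lactate handling, the lactate transporter SLC16A1 fell in adriamycin-resistant cells and LDHA fell in MM468/PR cells. LDHA (the subunit best known for turning pyruvate into lactate, chr11:18394388-18408425, plus strand) had 40417 counts in parental, 61921 in adriamycin-resistant and 20995 in MM468/PR cells. LDHA fell 2.98-fold in MM468/PR cells (2.93 to 3.03) and was at 1.04 times the parental level in adriamycin-resistant cells (1.03 to 1.05). LDHB, the heart-type subunit, had 4120, 10261 and 11270 counts, which is 1.69 times (1.63 to 1.75) and 1.77 times (1.71 to 1.83) the parental level. On the TPM scale LDHA and LDHB stood at 1234 and 213.4 in parental, 1237 and 349.4 in adriamycin-resistant, and 519.1 and 473.5 in MM468/PR cells. The share of LDHB in the sum of both was thus 14.7%, 22% and 47.7%, and the 2 subunit mRNAs were near equal in MM468/PR cells alone. Within a library, the ratio of LDHA to LDHB counts was 1.63 times lower in adriamycin-resistant than in parental cells (1.56 to 1.69) and 5.27 times lower in MM468/PR cells (5.06 to 5.48). This ratio does not depend on how the libraries are scaled, and the subunits have no 50-base window in common. A stretch before 1 of the 2 LDHA starts in RefSeq, picked because it holds CACGTG, and the LDHB stretch are shown for the members of this ratio. LDHA is read on the plus strand at chr11:18394313-18394387, ending 175 bases before the start, and LDHB on the minus strand at chr12:21657972-21658092, ending 129 bases before the start, both in GRCh38.p14 and outside annotated exons. Capitals mark CACGTG. The LDHB window does not hold it, and neither does the window of the other LDHA start, so the windows differ in this motif for 1 of the 2 LDHA starts.
LDHA: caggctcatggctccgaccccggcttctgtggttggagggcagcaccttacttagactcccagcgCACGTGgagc
LDHB: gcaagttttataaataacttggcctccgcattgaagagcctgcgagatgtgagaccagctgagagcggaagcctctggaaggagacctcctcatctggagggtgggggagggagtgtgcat

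**Figure D3:**
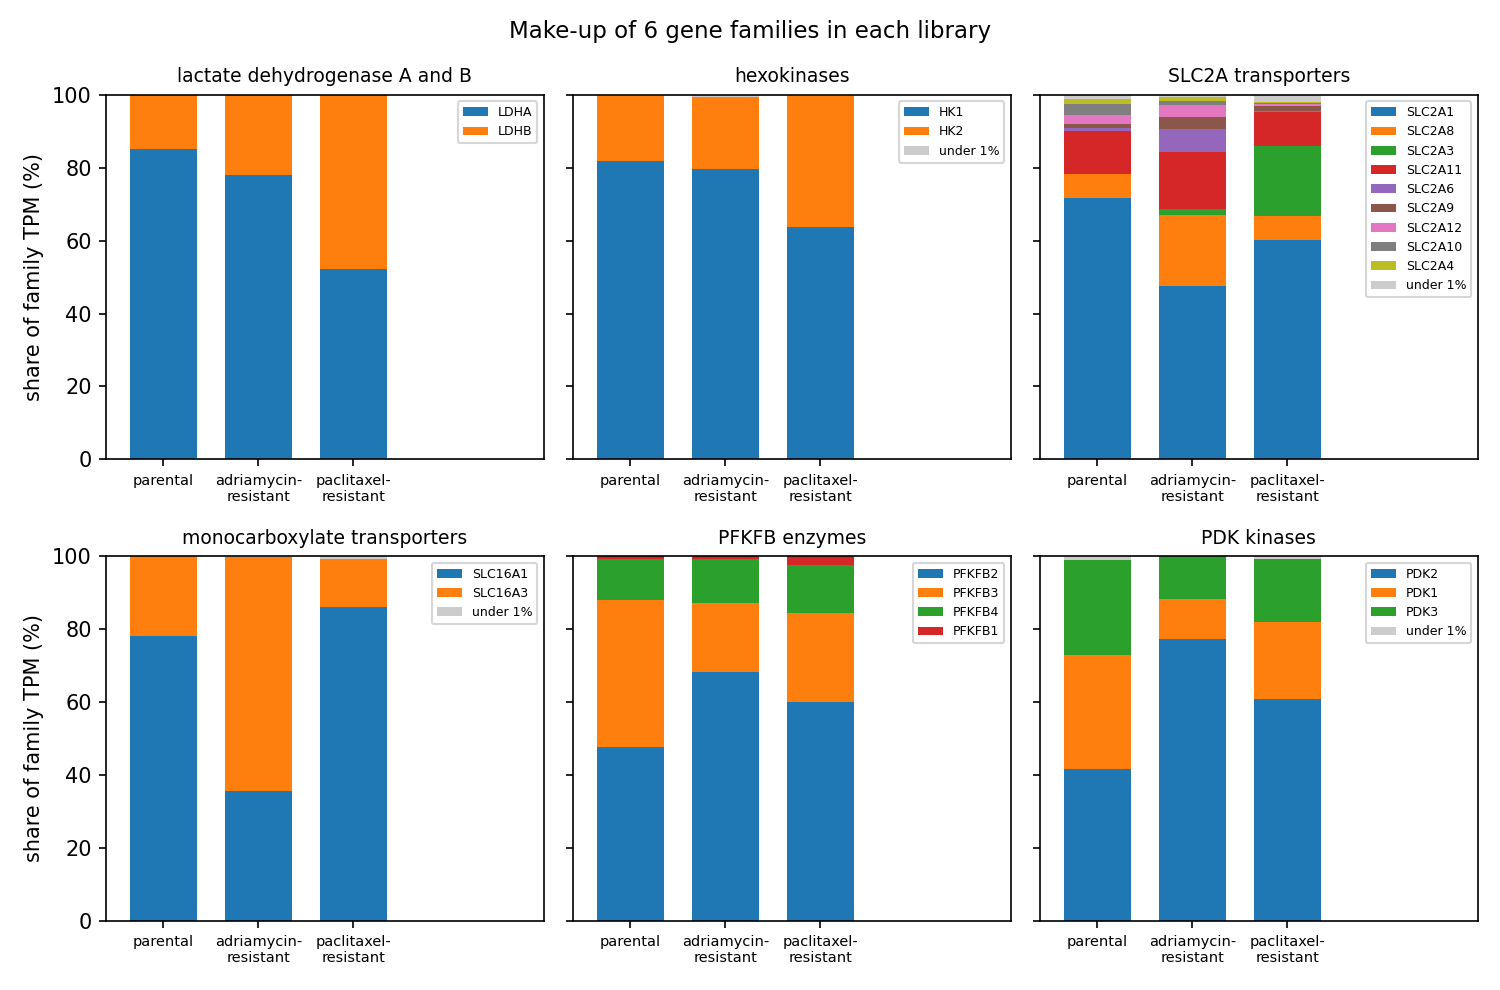
Share of each gene in the summed TPM of its family, in percent, with 1 bar per library. The lactate dehydrogenase panel shows LDHB going from 14.7% to 22% and 47.7%, and the monocarboxylate panel shows SLC16A1 going from 78.2% to 35.5% and 86.2%. SLC2A9, SLC2A11, SLC16A7, PFKFB1, PDK2 and other non-members are included in the sums.

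SLC16A1 (MCT1, a lactate and pyruvate transporter of the plasma membrane, chr1:112911847-112957013, minus strand) had 1829, 601 and 4251 counts in parental, adriamycin-resistant and MM468/PR cells. The adriamycin-resistant library was the low one, 4.48-fold lower than parental (4.08 to 4.92), and MM468/PR cells were at 1.5 times (1.42 to 1.59). The resistant lines were 6.56-fold apart (6.02 to 7.16). SLC16A3 (MCT4, the transporter typical of lactate-exporting cells) had 326, 667 and 412 counts, 1.39 and 0.817 times the parental level. SLC16A1 therefore supplied 78.2% of the summed TPM of the 4 listed monocarboxylate transporters in parental cells, 35.5% in adriamycin-resistant and 86.2% in MM468/PR cells. The ratio of SLC16A1 to SLC16A3 counts was 6.23 times lower in adriamycin-resistant than in parental cells (5.3 to 7.32). SLC16A1 and SLC2A1 thus shared their order of levels, lowest in adriamycin-resistant and highest in MM468/PR cells.

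The 3 member kinases that inhibit pyruvate dehydrogenase all fell in adriamycin-resistant cells, whereas PDK2, outside the members, rose 2.02-fold (1.83 to 2.22). PDK1 had 722, 507 and 600 counts, 2.1-fold lower in adriamycin-resistant cells (1.87 to 2.35) and at 0.537 times in MM468/PR cells (0.481 to 0.599). PDK3 had 1329, 923 and 869 counts and fell in both lines, 2.12-fold (1.95 to 2.31) and 2.37-fold (2.17 to 2.58). On the TPM scale the MM468/PR value of PDK3 was a log2 ratio of -0.63, which is below 2-fold. PDK4 had 13, 0 and 12 counts, at least 6.38-fold lower in adriamycin-resistant cells taking 3 counts as the limit for that library. PDK2, which is not a member, had 560, 1662 and 987 counts and took 41.7% of the summed TPM of the 4 PDK genes in parental cells, 77.4% in adriamycin-resistant and 60.7% in MM468/PR cells. The summed TPM of all 4 was 27.8, 29.8 and 27.1. In the lactate and pyruvate group 4 of 7 members were lower in adriamycin-resistant cells and 2 of 7 in MM468/PR cells, and none was higher in either with TMM. LDHB in MM468/PR cells passed 2-fold with library size alone (log2 ratio of 1.05) and on the TPM scale (1.15).

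Among the hypoxia members, the targets CA9 and VEGFA fell in MM468/PR cells, and none passed 2-fold in adriamycin-resistant cells. Hypoxia genes outside the members went both ways in MM468/PR cells, as given below. HIF1A, the oxygen-regulated subunit of hypoxia-inducible factor 1, had 4741, 6172 and 7018 counts, which is 0.884 times (0.851 to 0.919) and 0.957 times (0.922 to 0.993) the parental level. The MM468/PR value of HIF1A changes sign with the scaling, from a log2 ratio of -0.06 with TMM to 0.16 with library size alone. HIF1A is controlled largely at the protein level, which was not measured here. EPAS1 (HIF-2 alpha) had 8170, 18295 and 6353 counts, at 1.52 times (1.48 to 1.56) and 0.502 times (0.486 to 0.519). The ratio of EPAS1 to HIF1A counts was 1.72 times higher in adriamycin-resistant than in parental cells and 1.9 times lower in MM468/PR cells (1.81 to 2). CA9 (carbonic anhydrase 9, a surface enzyme widely used as a hypoxia marker) had 235, 372 and 93 counts and fell 3.91-fold in MM468/PR cells (3.06 to 5.03), with a ratio of 1.08 in adriamycin-resistant cells. VEGFA, the angiogenic growth factor, had 3566, 3823 and 2266 counts and fell 2.44-fold in MM468/PR cells (2.31 to 2.57), although its log2 TPM ratio of -0.96 was just below 2-fold. EGLN3, a prolyl hydroxylase that marks HIF for destruction and is itself induced by hypoxia, had 1858, 3353 and 1467 counts, at 1.23 and 0.51 times the parental level. Of these 5 members none was higher or lower in adriamycin-resistant cells, and 2 were lower in MM468/PR cells, where EPAS1 and EGLN3 lay just short of 2-fold with log2 fold changes of -0.99 and -0.97. The median log2 fold change of the 5 was 0.1 and -0.99.

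The 2 gluconeogenic members were both lowest in MM468/PR cells. FBP1 (fructose 1,6-bisphosphatase, which runs the phosphofructokinase step in reverse) had 120, 208 and 30 counts and fell 6.16-fold in MM468/PR cells (4.12 to 9.57), while its adriamycin-resistant ratio of 1.18 had an interval of 0.936 to 1.49. PCK2, the mitochondrial phosphoenolpyruvate carboxykinase, had 1698, 2173 and 1328 counts, at 0.869 and 0.505 times the parental level.

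Compared directly, 5 of 41 members were at least 2-fold higher in MM468/PR than in adriamycin-resistant cells (12.2%), against 19.4% of all 19327 genes, and 10 were lower (24.4%), against 14% of all genes. The 5 were SLC2A1, SLC2A3, SLC2A13, SLC16A1 and PDK4, which are 3 sugar or inositol transporters, a lactate transporter and a kinase with few counts. Among the lower ones were HK1 at 4.01-fold (3.85 to 4.17), LDHA at 3.18-fold (3.13 to 3.23), PGAM1 at 3.27-fold (3.15 to 3.4), FBP1 at 7.45-fold (5.08 to 11.4), CA9 at 4.31-fold (3.43 to 5.47) and EPAS1 at 3.1-fold (3.02 to 3.19). The median log2 fold change of the members was -0.48, beside 0.04 for all genes.

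The rest of the pathway was taken from lists of other genes. Of 14 other glycolytic genes, 7 were compared in adriamycin-resistant cells, with 2 higher and none lower, and 6 in MM468/PR cells, with 2 past 2-fold in each direction. TIGAR, a phosphatase that lowers fructose 2,6-bisphosphate, rose in both, with 443, 1509 and 1715 counts, 2.31-fold (2.08 to 2.58) and 2.5-fold (2.25 to 2.78). The PFKFB genes did not move together: PFKFB3 fell with TMM, and PFKFB2 and PFKFB4 were below 2-fold. PFKFB1, with 18, 25 and 59 counts, was 2.11-fold higher in MM468/PR cells (1.23 to 3.82). Of 15 compared further lactate and pyruvate genes, 4 were higher in adriamycin-resistant and 1 in MM468/PR cells, and none and 2 were lower. SLC16A7 (MCT2) had 0, 20 and 123 counts, at least 4.53-fold and 26.5-fold higher taking 3 counts as the parental limit, and at 0.528 TPM in MM468/PR cells remained far below SLC16A1. In glycogen metabolism, 1 of 10 compared genes was higher and 3 lower in adriamycin-resistant cells, and 2 were lower in MM468/PR cells. PYGB, a glycogen phosphorylase, had 6222, 4112 and 3057 counts and fell 2.23-fold (2.14 to 2.32) and 3.15-fold (3.02 to 3.29). PYGL, the liver-type glycogen phosphorylase, had 87, 1862 and 45 counts, 14.5-fold higher in adriamycin-resistant cells (11.7 to 18.2) and 2.99-fold lower in MM468/PR cells (2.06 to 4.39).

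None of 16 citric acid cycle genes was at least 2-fold higher or lower than in parental cells in either line, with log2 fold changes from -0.39 to 0.89 and from -0.92 to 0.44. Of 8 compared pentose phosphate genes, none was past 2-fold in adriamycin-resistant cells, and MM468/PR cells had 1 past it in each direction. Of 16 further hypoxia genes compared, 3 were higher (CA12, NDRG1 and DDIT4) and none lower in adriamycin-resistant cells. MM468/PR cells had 3 past 2-fold in each direction. VHL, ADM and LOX were 2.29-fold, 3.18-fold and 4.4-fold higher there, and CA12, DDIT4 and STC2 were 3.08-fold, 3.27-fold and 3.92-fold lower. The medians of the 16 were 0.22 in adriamycin-resistant and -0.29 in MM468/PR cells. Of the 5 glucose-sensing genes, TXNIP and ARRDC4, well-known targets of the glucose-responsive factor MondoA, were listed at 0 in all 3 libraries. This allows at most 0.0631 to 0.0917 CPM, and whether it reflects the cells or how the counts were made was not tested. MLXIPL, which encodes ChREBP, was higher in both lines with 16, 97 and 58 counts. Of the other SLC2A genes none of 3 compared was past 2-fold in adriamycin-resistant cells, and 2 of 4 compared, SLC2A14 and SLC2A5, were higher in MM468/PR cells. SLC2A5 had 4 counts in parental and 13 in MM468/PR cells, and its interval of 0.649 to 8.84 includes 1. Of the gluconeogenic genes outside the members, 1 of 2 compared was lower in MM468/PR cells.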

How the data were processed

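MM468 RNA was sequenced as 1 library per line from a stranded mRNA kit. The authors deposited whole-number read counts, FPKM and TPM for 46427 genes. The submitters' processing notes name Trimmomatic 0.39, HISAT2 2.2.1, StringTie 2.2.1 and GRCh38. How the deposited counts treated strand and multiply mapped reads is not given in the sources used here, so genes with antisense partners, such as SLC2A1-AS1 (42, 15 and 93 counts) and SLC16A1-AS1 (28, 15 and 60), may share reads. The deposited FPKM and TPM values correct for transcript length and depth.

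Counts of the 2 libraries compared were scaled by TMM (edgeR 4.0.16, R 4.3.3) over genes with 10 or more counts in either, with a prior count of 0.125. Quasi-likelihood tests could not be fitted to single libraries. Each interval was the exact 95% interval for 2 counts conditional on their sum, or for the odds ratio of a gene pair (scipy 1.17.1), and fold bounds against 0 used 3 counts. The scripts were tested on simulated data. TPM levels are as deposited. Positions are from GENCODE v29 (GRCh38), and promoters from RefSeq (GRCh38.p14), in which SLC2A3, SLC2A4, PFKFB2, SLC16A1 and VEGFA had no entry. Members given in full were those at least 2-fold different in a comparison with 100 or more counts in a library, plus SLC2A1, HK1, HK2, PFKP, LDHA, LDHB, PKM and HIF1A. From each other list, genes at least 2-fold different the same way in both lines with 100 or more counts were named, at most 3 a list. PDK2, PDK4, PYGL, MLXIPL, TXNIP, ARRDC4, SLC2A5, SLC2A14 and PGAM4 were named after their values were seen. So were PFKFB1, VHL, ADM, LOX, CA12, DDIT4, NDRG1 and STC2. The members and lists were chosen with earlier results of these data known. G6PC1 of the lists was not matched by symbol.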

Additional observations from a re-analysis of the deposited data

Results flagged for a closer look

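SLC2A13 was set apart because it passed 2-fold in opposite directions in the resistant lines, at 9 counts in adriamycin-resistant and 359 in MM468/PR cells against 100 in parental cells. The log2 fold change between the resistant lines was 5.19. With 1 library per line the difference was not tested.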

How the results depend on the processing

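No paired analysis was possible because each line had 1 library. For the same reason no library could be left out. Scaling by library size alone raised the median over all genes by 0.23 (log2) in MM468/PR cells and raised the share of higher among all genes past 2-fold from 60.2% to 71.2%. The median moved by 0.25 between the resistant lines, where that share went from 58.2% to 71.4%. No member past 2-fold changed direction with library size or TPM, whereas 2, 6 and 8 members below 2-fold did in the adriamycin-resistant, MM468/PR and direct comparisons. In MM468/PR cells these were HK3, PFKP, PFKFB2, PFKFB4, SLC16A3 and HIF1A.

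For adriamycin-resistant cells, the 3 higher members became 1 with TPM, with FPKM (pseudocount of 1 each) and at 4-fold. The 9 lower members became 5 with TPM, 3 with FPKM, 4 at 4-fold and 5 when the nearer end of the interval had to pass. For MM468/PR cells, the 2 higher members became 4 with library size alone, by the addition of LDHB and TPI1, and 1 at 4-fold or by the nearer end. The 11 lower members lost PFKFB3 with library size alone and became 7 with TPM, 6 with FPKM and 3 at 4-fold. Between the resistant lines the 10 lower members became 4 at 4-fold. The pseudocount shrinks changes of low transporters by construction. DESeq2 size factors, a prior count of 2, TMM over all 3 libraries and a count minimum of 100 or none left each count within 1.5 times, including 13 lower members in MM468/PR cells with DESeq2 size factors. For the named members, 288 of 432 alternative values lay within the counting interval and none reversed a change of 2-fold or more.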

Other observations

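The region around SLC2A3 was examined after its values were seen. Of 15 protein-coding neighbours within 500 kb, 5 had enough counts to compare. In MM468/PR cells 3 of these 5 were at least 2-fold higher, where 20.5% of all genes were. The highest log2 fold change was 1.49, for SLC2A14, whose level is uncertain because it shares sequence with SLC2A3. The median of the 5 was 1.05, beside 0.07 for all genes. Whether the region changed as a whole was not tested. CD163L1 had 395, 404 and 1266 counts in parental, adriamycin-resistant and MM468/PR cells, and CLEC4A 15, 7 and 57. FOXJ2 and NECAP1, at log2 fold changes of 0.41 and 0.39, were below 2-fold. In adriamycin-resistant cells none was higher and CLEC4A was lower.

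Antisense genes of members had few counts. HIF1A-AS3 had 5, 89 and 30 counts, and the parts of strand and of overlapping HIF1A reads in these values were not tested.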
